A study of Mus musculus with 2 samples.

Results

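Arginine metabolism in cultured myeloid-derived suppressor cells (MDSCs) was described through 7 genes out of the 32285 genes counted: Nos2, Arg1, Arg2, Slc7a2, Ass1, Asl and Odc1. The genes were listed by symbol from their place in the pathway, with earlier results of these data known. Each of the 7 symbols matched 1 counted gene. The data were unique molecular identifier (UMI) counts per gene and cell from 2 single-cell RNA-seq libraries made with the 10x Genomics 5′ v2 chemistry. Bone marrow from female C57BL/6 mice aged 10 weeks was grown for 4 days with IL-6 and GM-CSF, 2 cytokines that were both used at 50 ng/mL. One culture held 1.5 µM dabrafenib (DAB), a BRAF kinase inhibitor that the study examined for its interaction with the stress kinase GCN2, and the other held an equal volume of the solvent (DMSO). The number of mice behind each library was not given in the sources used here, and there was 1 library per condition. No test between conditions was therefore possible, and every interval below is a 95% interval that covers counting error and not the spread between cultures or mice.

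Arginine is a substrate over which several enzymes of myeloid cells compete. Cationic amino acid transporters bring it into the cell, and Slc7a2 encodes the inducible transporter CAT2 of activated macrophages. Nos2 encodes inducible nitric oxide synthase, which turns arginine into nitric oxide and citrulline. Arg1, cytosolic, and Arg2, mitochondrial, encode the arginases, which split arginine into urea and ornithine. Odc1 encodes ornithine decarboxylase, the entry to the polyamines, and Ass1 and Asl encode the argininosuccinate synthase and lyase that rebuild arginine from citrulline. Uptake and consumption of arginine by Arg1 and Nos2 are textbook ways in which MDSCs and macrophages restrain T cells, and Arg1 and Nos2 are also widely used as opposing markers of alternative and classical macrophage activation.

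In GENCODE vM21 coordinates of GRCm38, the build named mm10, Nos2 spans chr11:78920787-78960254 on the plus strand and Arg1 spans chr10:24915221-24927484 on the minus strand. Arg2 lies at chr12:79130777-79156301 on the plus strand, Slc7a2 at chr8:40862396-40922308 on the plus strand and Ass1 at chr2:31470207-31520672 on the plus strand. Asl lies at chr5:130011258-130029247 on the minus strand and Odc1 at chr12:17544794-17551505 on the plus strand. Arg2 overlaps the counted minus-strand genes Gm48780 and Vti1b.

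The study also measured Arg1 and Nos2 by quantitative PCR, and its primers are shown because they mark which part of each transcript that assay read.
Arg1, listed as forward: gaaaggaaagttcccagatgtacc
Arg1, listed as reverse: agggtctacgtctcgcaagc
Nos2, listed as forward: cgtggctttgggctcctc
Nos2, listed as reverse: caccaagctgaacttgagcg
The Arg1 pair encloses 97 bases of coding sequence of Arg1-201, a transcript of 1477 bases. Its sense primer crosses the junction of exons 4 and 5, at bases 572 to 595, and its antisense primer lies in exon 5 at chr10:24916783-24916802. The Nos2 pair encloses 145 bases of coding sequence of Nos2-201, a transcript of 4192 bases. The primer listed as reverse reads with the transcript, in exon 26 at chr11:78957550-78957569, and the primer listed as forward reads against it, in exon 27 at chr11:78959726-78959743. The single-cell reads come from the 5′ ends of transcripts, so both assays sampled different stretches of the same RNAs. No value of the PCR assay was used here.

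Of the members, Ass1 and Odc1 had a RefSeq promoter window, which runs from 250 bases before to 50 bases after a RefSeq start site in GRCm38.p6. For Ass1 this site is not the GENCODE gene start given above, chr2:31470207, which lies inside the window. The Ass1 window is shown because an E-box, the letters CACGTG bound by MYC-family and related factors, lies in it.
Ass1, chr2:31470020-31470319, plus strand: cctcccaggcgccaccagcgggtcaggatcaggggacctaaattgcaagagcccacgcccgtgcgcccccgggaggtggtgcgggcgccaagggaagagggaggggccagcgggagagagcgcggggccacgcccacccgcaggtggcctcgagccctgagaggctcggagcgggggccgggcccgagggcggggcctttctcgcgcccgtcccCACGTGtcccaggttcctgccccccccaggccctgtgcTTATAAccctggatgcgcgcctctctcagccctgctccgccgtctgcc
Capitals mark the E-box and a stretch that holds TATAA on both strands. Searched on both strands, CACGTG occurred in 7.15% and TATAA in 24.9% of the 32851 windows of this length, and TGATGNAA, letters of the ATF4 response element, in 3.97%. TGATGNAA was not found in the Ass1 window, and none of the 3 motifs was found in the Odc1 window. A match is a description of letters and not of a bound site.

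After filters on mitochondrial share, outlying depth and doublets, 9032 DMSO cells with 92265478 UMIs and 10477 DAB cells with 140126107 UMIs remained, with medians of 7519.5 and 9431 UMIs per cell. Levels are given as CPM, the counts of a gene in 1000000 UMIs, of the summed cells, and log2 ratios are DAB over DMSO. UMIs of a 5′ assay count molecules and were not scaled by gene length. Shares of cells with a UMI of a gene were computed after each cell was thinned to 1500 UMIs, and 436 DMSO and 291 DAB cells were too shallow to enter. Both libraries shared 152 cell barcodes. Cells were clustered without the genes of the arginine pathway, and a cluster was named only where markers of a class led it, so that 1146 DMSO and 688 DAB cells of cluster A were immature monocyte-like (Spp1, Lpl, Mmp12, Ccr2). Clusters without a clear class are called by letter and leading genes.

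Across all cells, Nos2 and Slc7a2 stood furthest apart between the libraries, Arg1 was lower in DAB to a smaller degree, and Odc1 was higher in DAB. Nos2 and Slc7a2 were 10.3-fold and 4.48-fold lower in the DAB library, at log2 ratios of -3.36 (-3.44 to -3.28) and -2.16 (-2.21 to -2.12). The summed Arg1 level was 2.16-fold lower, at a log2 ratio of -1.11 (-1.13 to -1.10). Arg2 at -0.64, Ass1 at -0.35, Asl at 0.11 and Odc1 at 0.58 stayed within 2-fold. A gene was counted as past 2-fold where the ratio was at least 2-fold and its interval left out 0. By this rule 3 of the 7 members were lower in DAB and 0 were higher, against 4.54% and 3.7% of the 12115 genes with at least 200 UMIs. With 1 library per condition these counts describe the pair of libraries and not the treatment.

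**Figure D1:**
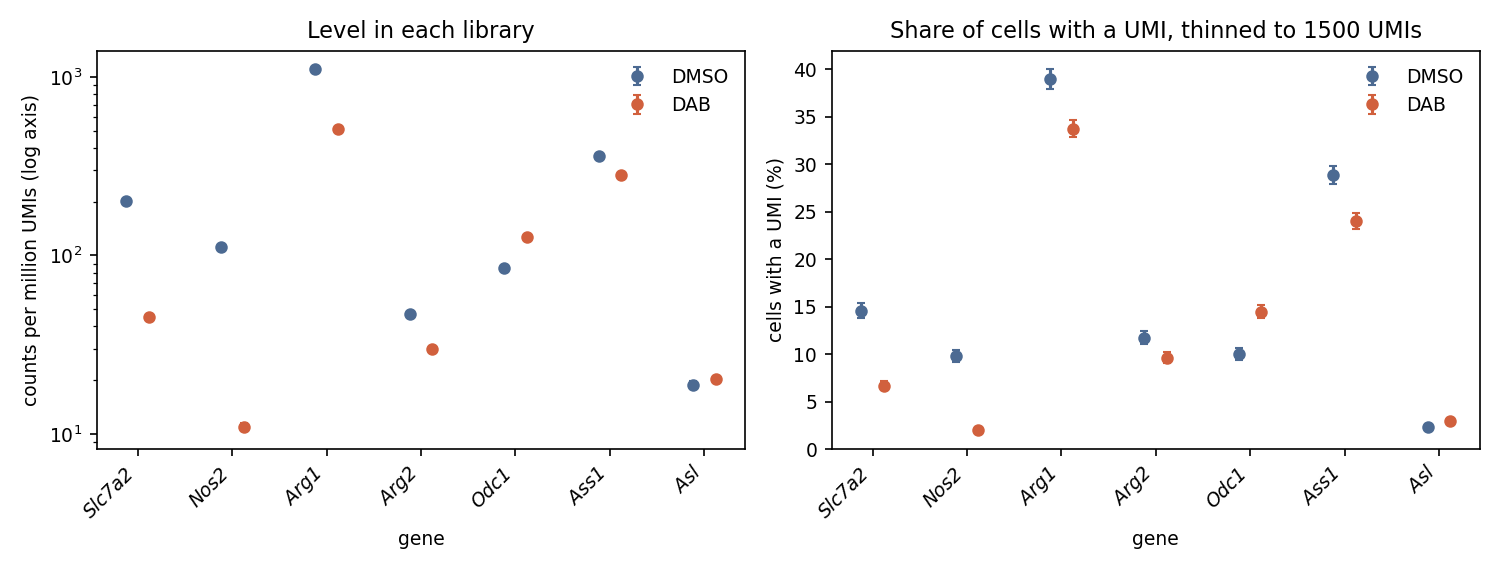
Left, the level of each of the 7 genes in CPM on a log axis, with exact Poisson intervals, and right, the share of thinned cells with at least 1 UMI in percent, with exact binomial intervals, for the DMSO and the DAB library. Nos2 sits at 112 CPM in DMSO and 10.9 in DAB, Slc7a2 at 202 and 45.1, and Odc1 at 84.8 and 127.

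Uptake comes first in the pathway. Slc7a2 lay at 202 CPM (199 to 205) in DMSO and 45.1 CPM (44.0 to 46.2) in DAB, from 18633 and 6315 UMIs. A UMI of Slc7a2 was seen in 14.6% of thinned DMSO cells (13.8 to 15.4) and in 6.68% of thinned DAB cells (6.20 to 7.18). Of the 12115 genes, 0.627% had a lower ratio. Immature monocyte-like cells held 56.9% of the Slc7a2 UMIs of the DMSO library while being 12.7% of its cells, and held 24.5% in DAB, where they were 6.57% of the cells. In these cells the level was 539 CPM in DMSO and 117 CPM in DAB, for a log2 ratio of -2.21. This class depended on the clustering: it held 688 DAB cells here, but 1421 at a resolution of 0.5, 294 at 1.5, 214 with the arginine genes kept in the clustering and 67 without alignment of the libraries, with 933 to 1637 DMSO cells. Its Slc7a2 ratio was -2.46, -1.62, -1.23 and -0.14 in that order, so the 2-fold gap was lost without alignment, where 7.27% of its 688 DAB cells stayed in the class. The ratio over all cells differed with their depth: it was -0.43 in cells at or below their own library's median UMI count and -2.47 in deeper cells. This split, chosen after seeing the data, did not hold cell type fixed. When every cell was weighted equally, the ratio was -1.51.

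In DMSO, the macrophage-like cluster W (C1qa, C1qb, C1qc) reached a Slc7a2 level of 546 CPM, close to that of the immature monocyte-like cells, and lay at 134 CPM in DAB, from 106 and 69 cells. Among the clusters with at least 100 cells in each library, of which there were 19, Slc7a2 was lower in DAB in 18 and past 2-fold lower in 14. The 14 include cluster H (Camp, Ltf, Ngp), from 18 and 1 UMIs. The 18 include the B cell-like cluster T, from 3 and 1 UMIs. For reference, the share of all genes past 2-fold lower within a cluster ran from 1.3% to 5.14%, with a median of 2.57%, and the share higher from 1.51% to 6.75%. In mature monocyte-like cells (cluster J, led by MHC class II genes) it was at 63.6 CPM in DMSO and 1.63 in DAB. The DAB value lies under 2.80 CPM, the level that 3 UMIs would give in the B cell-like cells used below as a reference for free RNA. Those cells had a median of 4867 UMIs in DAB, against 28734 in cluster J, so a reference in CPM may not carry over. Whether the Slc7a2 ratio of -5.29 is resolved from background was not settled, and it was -3.85 at a resolution of 0.5. Cluster P, intermediate granulocyte-like cells led by Retnlg and Ly6g, ran the other way, at 12.5 and 40.2 CPM, from 10 and 174 UMIs.

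Slc7a1 and Slc7a3 of the CAT family, unlike Slc7a2, were higher in DAB, and Slc7a4, with 55 UMIs in DMSO and 22 in DAB, was too rare to be counted. Slc7a1, the housekeeping transporter CAT1, lay at 14.2 CPM in DMSO and 43.7 in DAB, for a log2 ratio of 1.63. It was higher in DAB in 18 of the 19 clusters, in 15 of them past 2-fold, and lower in the B cell-like cluster T at -0.50. Slc7a3, another CAT gene, was chosen for mention after its values were seen, and had 9 UMIs in DMSO and 714 in DAB, for a log2 ratio of 5.71 (4.77 to 6.84). Slc3a2, the heavy chain shared by several amino acid exchangers, lay at 117 and 268 CPM, for a log2 ratio of 1.20. Taken as a sum, the UMIs of the CAT genes Slc7a1, Slc7a2 and Slc7a3 lay at 216 CPM in DMSO and 93.9 in DAB, for a log2 ratio of -1.20. Slc7a2 gave 93.4% of these UMIs in DMSO and 48.0% in DAB, while Slc7a1 gave 6.55% and 46.6%.

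**Figure D2:**
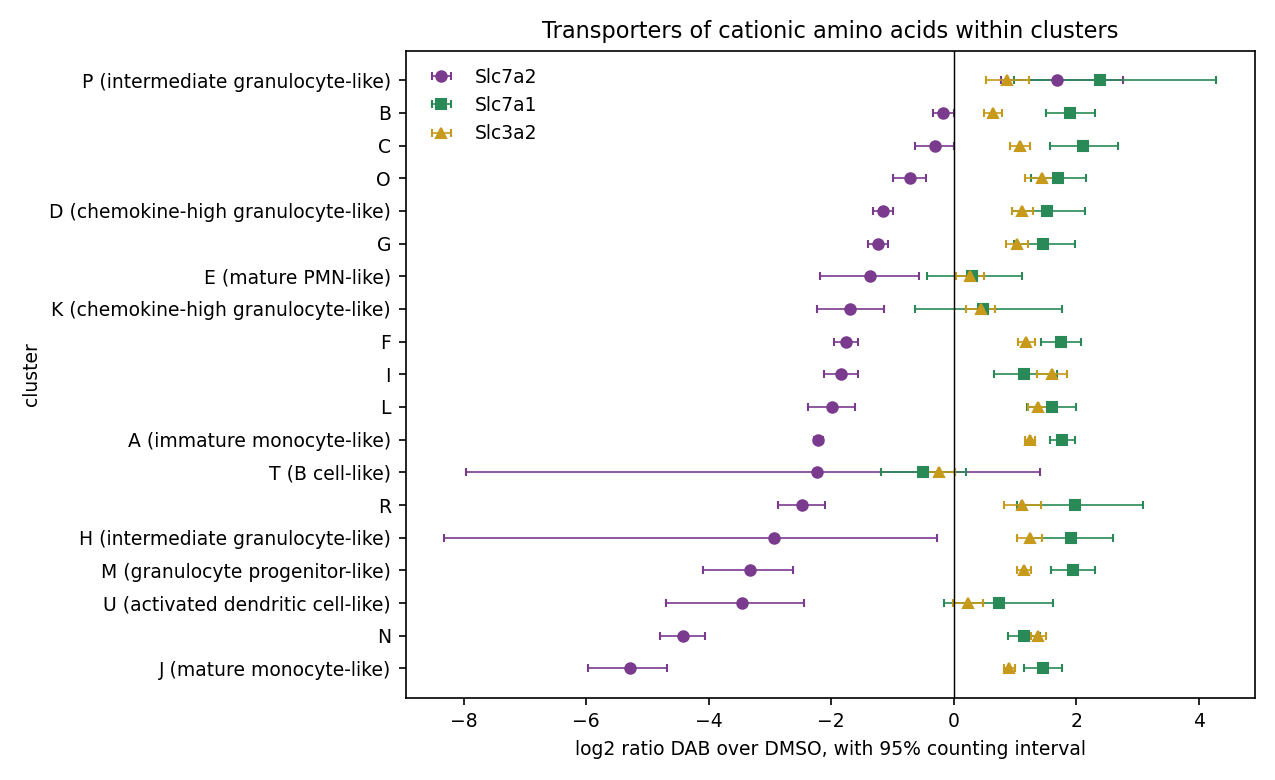
Each point is the log2 ratio DAB over DMSO of a transporter gene in a cluster with at least 100 cells in each library, with bars for the counting interval and the vertical line at 0 for equal levels, and clusters are sorted by the Slc7a2 ratio. Slc7a2 lies below 0 in 18 of 19 clusters, whereas Slc7a1 and Slc3a2 lie above 0 in 18 of 19.

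Nos2 comes next, as an enzyme that consumes arginine. Its level was 112 CPM (110 to 114) in DMSO and 10.9 CPM (10.4 to 11.5) in DAB, from 10316 and 1528 UMIs. A UMI of Nos2 was seen in 9.80% of thinned DMSO cells (9.17 to 10.4) and in 2.00% of thinned DAB cells (1.74 to 2.29). Of all genes tested, 0.248% had a lower ratio. The transcript was concentrated in few cells of both libraries. The richest 1% of cells held 27.1% of the Nos2 UMIs of the DMSO library and 43.8% of those of the DAB library, and the richest single cell held 98 and 30 UMIs.

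By cluster, Nos2 was lower in DAB in 18 of the 19 clusters compared, and past 2-fold lower in 17. Cluster T, the B cell-like cluster, had 3 Nos2 UMIs in DMSO and 0 in DAB and was not given a ratio. The exception to the 2-fold count was the mature PMN-like cluster E (Csf3r, Mmp9, Il1rn), with 8 and 7 UMIs, where the ratio of -1.57 had an interval of -3.26 to 0.09. The immature monocyte-like cells carried the highest Nos2 level among these clusters in DMSO, 254 CPM, against 23.6 CPM in DAB, for a log2 ratio of -3.43 (-3.60 to -3.26). Under the other clusterings named above it was -3.93, -2.67, -2.25 and, without alignment, -1.11. Mature monocyte-like cells lay at 55.0 and 0.849 CPM, for a ratio of -6.02 (-6.98 to -5.20), from 406 and 12 UMIs, and at -3.79 at a resolution of 0.5. Their DAB value lies under the 2.80 CPM of the free RNA reference. So do those of cluster N, at 57.3 CPM in DMSO and 2.52 in DAB, and cluster H (Camp, Ltf, Ngp), at 10.8 and 1.12. The activated dendritic cell-like cluster U, at 34.6 and 1.13 CPM, and cluster E, at 7.63 and 2.58, lie under it in DAB too. The order of these gaps is thus not resolved. Cluster K, a chemokine-high granulocyte-like cluster (Ccl3, Hcar2), had the narrowest, at 120 and 41.2 CPM, for a log2 ratio of -1.54 (-1.99 to -1.09). In DAB, cluster K was thus above the immature monocyte-like cells, which it was below in DMSO. This order depended on the clustering. The DAB Nos2 level of the immature monocyte-like class was 15.5 CPM at a resolution of 0.5. It was 44.9 CPM at 1.5, 64.6 with the arginine genes kept and 91.5 without alignment, each above the 41.2 CPM of cluster K.

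The share of each library's Nos2 UMIs by cell type differed too. Immature monocyte-like cells held 48.4% of them in DMSO and 20.5% in DAB, and chemokine-high granulocyte-like cells (clusters D and K) held 2.68% and 21.7%. The latter were 383 cells in DMSO and 1792 in DAB. Had each cluster kept its DMSO level while taking the DAB library's mix of clusters, the log2 ratio of Nos2 would have been -0.26. With cluster shares made equal in both libraries it was -3.11. Both values hold for the aligned clustering used here and were not computed under the others. Without alignment, the immature monocyte-like class held 1637 DMSO and 67 DAB cells, and its Nos2 ratio was -1.11.

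Arg1 gave the most UMIs of the 7 genes in both libraries. Its summed level was 1106 CPM (1099 to 1113) in DMSO and 512 CPM (508 to 515) in DAB, from 102070 and 71676 UMIs. This ratio differed between shallower and deeper cells. In cells at or below their own library's median UMI count, Arg1 was at 797 CPM in DMSO and 1290 in DAB, for a log2 ratio of 0.70, whereas in the deeper cells it was at 1182 and 352, a ratio of -1.75. This split was chosen after seeing the data and did not hold cell type fixed. Median depths in DMSO and DAB were 2369 and 2847 UMIs in cluster E and 2350.5 and 3246 in cluster K, both higher in DAB for Arg1. They were 16715 and 18337 in cluster A and 19649 and 28734 in cluster J, both lower. Cluster O (Gm26917, Gria3), at 2672 and 3889 UMIs, was shallow and also lower. Depth and cell type were not told apart. When every cell was weighted equally, the ratio was -0.19. A UMI of Arg1 was seen in 39.0% of thinned DMSO cells (37.98 to 40.06) and 33.8% of thinned DAB cells (32.9 to 34.7). By contrast, Nos2 was lower in DAB on both sides of the median depth, at -1.88 and -3.75.

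The direction of Arg1 also differed between clusters, which were not split by depth. Arg1 was lower in DAB in 14 of the 19 clusters, past 2-fold in 9, and higher in 5, past 2-fold in 1. The 9 clusters were N, J, M, R, A, I, L, F and O, in order of the gap. Immature monocyte-like cells lay at 2378 CPM in DMSO and 591 in DAB, for a log2 ratio of -2.01 (-2.04 to -1.97), and a UMI was found in 73.0% and 35.7% of their thinned cells. Under the other clusterings this ratio was -2.07 at a resolution of 0.5, -1.60 at 1.5, -0.94 with the arginine genes kept and -0.41 without alignment, so the 2-fold gap was lost in the last 2. Cluster N, led by the cell-cycle genes Ube2c and Cenpf, lay at 1263 and 69.2 CPM, for a log2 ratio of -4.19. Mature monocyte-like cells lay at 180 and 19.1 CPM, a ratio of -3.24, and granulocyte progenitor-like cells (cluster M, led by Elane, Mpo and Prtn3) at 139 and 31.5 CPM, a ratio of -2.14. The last of these was not held under other clusterings, at -0.12 with resolution 0.5, 0.82 with 1.5 and -0.10 without alignment, in which 15.2% to 16.3% of its DAB cells stayed in the class. Clusters R (Tspan18, Asgr2), I (Cstdc5, Stfa1), L (Chil3, Gal, with S100a9 and S100a8), F (Gm15564, Lars2) and O (Gm26917, Gria3) ran from -2.06 to -1.17.

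The 5 clusters in which Arg1 was higher in DAB were B, C, E, K and P. Mature PMN-like cells lay at 551 CPM in DMSO and 835 in DAB, for a log2 ratio of 0.60 (0.47 to 0.73), with a UMI in 35.1% of thinned cells of both libraries. Cluster C (S100a9, Ly6g, S100a8) lay at 480 and 849 CPM, and cluster B (Car4, Csf3r, Ly6i) at 1168 and 1669 CPM. Cluster P lay at 545 and 1149 CPM, a ratio of 1.08 (0.94 to 1.22), and cluster K at 580 and 935 CPM, a ratio of 0.69. Cluster D, the other chemokine-high granulocyte-like cluster (Cxcl3, Ccl2, Cxcl2), differed little, at 1039 and 976 CPM.

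With DMSO levels in the DAB library's mix of clusters, again for the aligned clustering alone, the Arg1 ratio would have been -0.24. Of the library's Arg1 UMIs, immature monocyte-like cells held 45.8% in DMSO and 10.9% in DAB, and chemokine-high granulocyte-like cells 2.34% and 20.2%. In the macrophage-like cluster W the level was 2915 CPM in DMSO and 2036 in DAB, and a UMI was found in 80.4% and 74.6% of thinned cells. Intermediate granulocyte-like cells came from different clusters in each library. Cluster H (Camp, Ltf, Ngp) held 834 of its 960 DMSO cells and cluster P held 426 of its 619 DAB cells, and the class level was 80.8 CPM in DMSO and 715 in DAB, while cluster H itself was at 22.2 and 14.9 CPM. With cluster shares made equal, in the same clustering, the Arg1 ratio of the whole libraries was -0.96, just inside 2-fold.

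**Figure D3:**
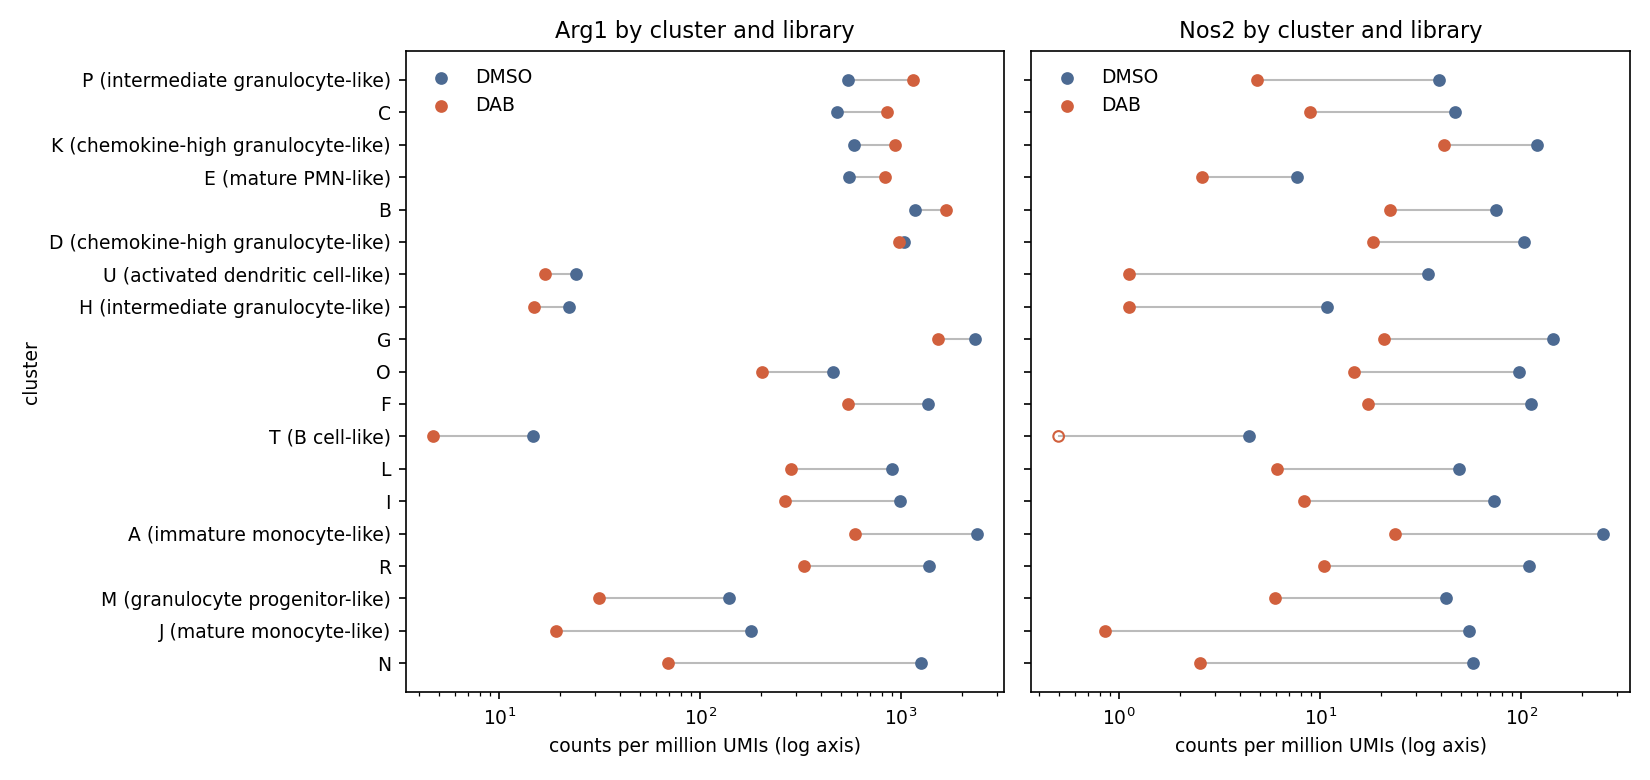
Arg1 (left) and Nos2 (right) in CPM on log axes, in each cluster with at least 100 cells in each library, with a line joining the DMSO and the DAB value, sorted by the Arg1 ratio. Arg1 is higher in DAB in the top 5 clusters and lower in the other 14, and Nos2 is lower in DAB in the 18 with UMIs in both libraries. The open circle marks a cluster with 0 Nos2 UMIs in DAB (cluster T).

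Arg2 had a different cell distribution from Arg1. It lay at 46.8 CPM (45.4 to 48.2) in DMSO and 30.002 CPM (29.1 to 30.9) in DAB, with a UMI in 11.7% and 9.63% of thinned cells. The mature PMN-like cluster E and the chemokine-high cluster K carried the most, at 232 and 289 CPM in DMSO and 200 and 239 CPM in DAB. Immature monocyte-like cells carried 13.4 CPM of Arg2 in DMSO and 2.94 in DAB, the latter near the 2.80 CPM of the free RNA reference. Within clusters Arg2 was lower in DAB in 18 of 19, in 13 past 2-fold, with a median log2 ratio of -1.37, wider than the -0.64 of the whole libraries. Cluster B, for example, lay at 111 and 45.7 CPM. The 13 include mature monocyte-like cells, at 5.55 and 1.06 CPM, near the 5.88 and 1.87 CPM that B cell-like cells had from 4 and 2 UMIs. Clusters E and K made up more of the DAB library, whereas clusters C and B, at 125 and 111 CPM of Arg2 in DMSO, made up less. Clusters C and B were 10.2% and 13.3% of DMSO cells and 6.69% and 5.52% of DAB cells. The whole DAB mix at DMSO levels would have given an Arg2 ratio of 0.11. Because Arg2 overlaps Vti1b and Gm48780 on the opposite strand, reads shared between them could not be examined here.

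Downstream of the arginases, Odc1 was higher in DAB. It lay at 84.8 CPM (82.9 to 86.7) in DMSO and 127 CPM (125 to 129) in DAB, with a UMI in 10.0% of thinned DMSO cells (9.41 to 10.7) and 14.5% of thinned DAB cells (13.8 to 15.2). Of all genes tested, 89.5% had a lower ratio. It was higher in 17 of 19 clusters, but past 2-fold in 2 of them, cluster H at 14.6 and 45.5 CPM and cluster L (Chil3, Gal) at a log2 ratio of 1.30. Immature monocyte-like cells lay at 83.5 and 127 CPM and granulocyte progenitor-like cells at 127 and 200 CPM. B cell-like cells had a level of 151 and 154 CPM, as high as in many myeloid clusters.

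The citrulline enzymes Ass1 and Asl stayed within 2-fold over all cells. Ass1 lay at 361 CPM (357 to 365) in DMSO and 284 CPM (281 to 287) in DAB, for a log2 ratio of -0.35 (-0.37 to -0.33), with a UMI in 28.9% and 24.0% of thinned cells. Within the 19 clusters it ran from -0.67 in mature monocyte-like cells, at 637 and 400 CPM, to 1.30 in cluster T. It was lower in 13, past 2-fold in 0. Activated dendritic cell-like cells (cluster U, Ccr7, Fscn1, Ccl22) were also rich in it, at 603 and 577 CPM, and mature PMN-like cells poor, at 82.0 and 73.3 CPM. The macrophage-like cluster W, with fewer cells, stood apart at 286 and 77.0 CPM, from 235 and 47 UMIs.

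Asl lay at 18.8 CPM (17.9 to 19.7) in DMSO and 20.2 CPM (19.5 to 21.0) in DAB, with a UMI in 2.30% and 2.97% of thinned cells. The ratio of 0.11 had an interval of 0.02 to 0.19. It was higher in DAB in 14 of the 19 clusters, past 2-fold in clusters L and E, and cluster E rested on 11 and 59 UMIs. Cells with an Ass1 UMI were thus far more frequent than cells with an Asl UMI in both libraries.

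**Figure D4:**
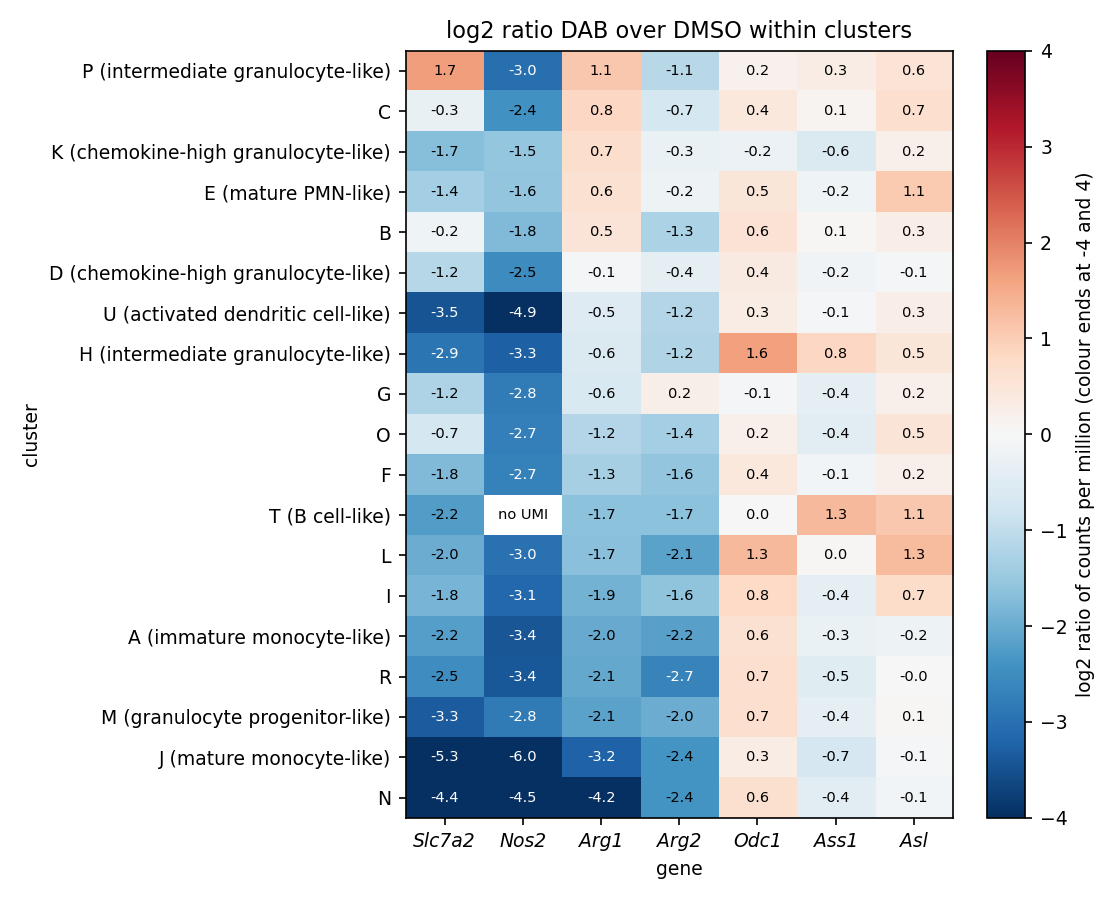
The log2 ratio DAB over DMSO of each of the 7 genes (columns) in each cluster with at least 100 cells in each library (rows), coloured by direction and size, with no ratio where DAB held 0 UMIs. The Nos2 and Slc7a2 columns are lower in DAB in 18 of 19 clusters, Arg1 divides into 14 lower and 5 higher, and Odc1 is higher in 17.

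By named class with at least 200 cells in each library, of which there were 6, 16 of the 42 values of a gene in a class were past 2-fold lower and 5 past 2-fold higher, counting members whatever their number of UMIs. Under the other clusterings 12 to 16 were lower and 1 to 3 higher. Immature monocyte-like cells had 4 of the members lower (Nos2, Arg1, Arg2, Slc7a2) and 0 higher, where 4.92% of the 8665 genes tested were lower and 2.68% higher. Arg1 and Slc7a2 were no longer among them without alignment, nor Arg1 with the arginine genes kept. Mature monocyte-like cells also had these 4 lower and 0 higher, where 5.13% of 7507 genes were lower and 4.16% higher. Their Arg2, at 5.55 and 1.06 CPM, was under the 5.88 and 1.87 CPM of B cell-like cells, levels that rest on 4 and 2 UMIs. Those cells were shallower, so whether this Arg2 is resolved from background was not settled. Granulocyte progenitor-like cells had these 4 lower and 0 higher as well, Arg1 not under the clusterings given above, where 3.56% of 7155 genes were lower and 4.65% higher. Their Arg2, at 6.26 and 1.58 CPM, was also near the level of B cell-like cells. Their DAB Slc7a2, at 1.85 CPM, lay under the 2.80 CPM of the free RNA reference. Chemokine-high granulocyte-like cells had 2 lower, Nos2 and Slc7a2, and 0 higher, where 2.29% of 6953 genes were lower and 1.93% higher. Mature PMN-like cells had Slc7a2 lower, from 28 UMIs in each library, and Asl higher, where 1.3% of 3154 genes were lower and 1.87% higher. The Slc7a2 value of these cells turned to 0.029 at a clustering resolution of 1.5 and to 0.44 without alignment of the libraries. Intermediate granulocyte-like cells, with their different clusters, had Nos2 lower and Arg1, Slc7a2, Ass1 and Odc1 higher, where 4.81% of 5756 genes were lower and 8.86% higher. Their Slc7a2 value turned to -0.48 at a resolution of 0.5, Ass1 (0.47 to 0.62) and Odc1 (0.70 to 0.88) were within 2-fold under every other clustering, and Arg1, 3.15 here, ran from 0.70 to 1.59 under them. The class ratios of Arg1 and Slc7a2, 3.15 and 2.66, lay above those of clusters H (-0.57 and -2.93) and P (1.08 and 1.68). They pool clusters of unlike share in each library and are not levels within a single cluster.

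B cell-like cells gave a reference for free RNA, since Nos2, Arg1 and Slc7a2 are not expected in them. Their median depths were 3976 UMIs in DMSO and 4867 in DAB. The monocyte-like and granulocyte progenitor-like clusters were deeper, so a reference in CPM is rough for them. Among thinned cells, 0 of 129 in DMSO and 0 of 175 in DAB had a Nos2 UMI, which allows a share of up to 2.33% and 1.71%. Arg1 was seen in 5 of 129 (3.88%) and in 1 of 175 (0.571%), at 14.7 and 4.67 CPM. Arg1 in cluster H and in activated dendritic cell-like cells, at 22.2 and 24.0 CPM in DMSO, was close to that level. In DAB, a Nos2 share of up to 1.71% of the cells of a cluster cannot be told from this reference.

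Cells that carried Arg1 and Nos2 together were common in DMSO. After thinning, 548 of 8596 DMSO cells, 6.38% (5.87 to 6.91), had a UMI of both genes, and 124 of 10186 DAB cells, 1.22% (1.01 to 1.45). Without thinning the numbers were 1776 cells (19.7%) and 536 cells (5.12%), and with at least 2 UMIs of each gene 1091 cells (12.1%) and 197 cells (1.88%). Among B cell-like cells 0 of 129 and 0 of 175 carried both, which follows from their 0 cells with Nos2. The latter allows up to 1.71%, above the 1.22% of all DAB cells, so it cannot tell the DAB joint cells from free RNA. Most cells with Nos2 also carried Arg1. In DMSO, Arg1 was found in 65.1% of cells with Nos2 (61.8 to 68.3) and in 36.2% of the others, and in DAB in 60.8% (53.7 to 67.5) and 33.2%. Read the other way, Nos2 was found in 16.3% of DMSO cells with Arg1 and in 5.61% of those without, and in DAB in 3.60% and 1.19%. Most cells with Arg1 thus had no Nos2 UMI at this depth.

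The joint cells were not spread evenly over cell types. In DMSO, 242 of 1137 immature monocyte-like cells carried both, 21.3% (18.9 to 23.8), and these were 44.2% of all such cells. In DAB, 17 of 686 did, 2.48% (1.45 to 3.94), which were 13.7% of all such cells. Under the other clusterings the share of this class ran from 17.8% to 26.2% in DMSO and from 1.71% to 9.09% in DAB, where the 9.09% was 6 of 66 cells. High shares in DMSO were not particular to this class. The small cluster X (Ccl4, Ccl3, Il1b) had 8 of 38 cells, 21.1% (9.55 to 37.3), and the macrophage-like cluster W had 12 of 102, 11.8%. In DAB clusters X and W had 1 of 110 and 2 of 63. The DAB cells with both lay in cluster D (18.5%), cluster G (Stfa2l1, Cstdc4, Olfml2b, 15.3%), cluster K (14.5%) and cluster B (12.9%). In chemokine-high clusters D and K the shares were 4.06% and 5.70% in DMSO and 2.06% and 2.89% in DAB, with intervals that overlap. In mature monocyte-like cells, 9 of 371 DMSO cells and 0 of 485 DAB cells carried both, and in cluster N 21 of 259 and 0 of 286, the latter 0 allowing shares of up to 0.619% and 1.05%.

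**Figure D5:**
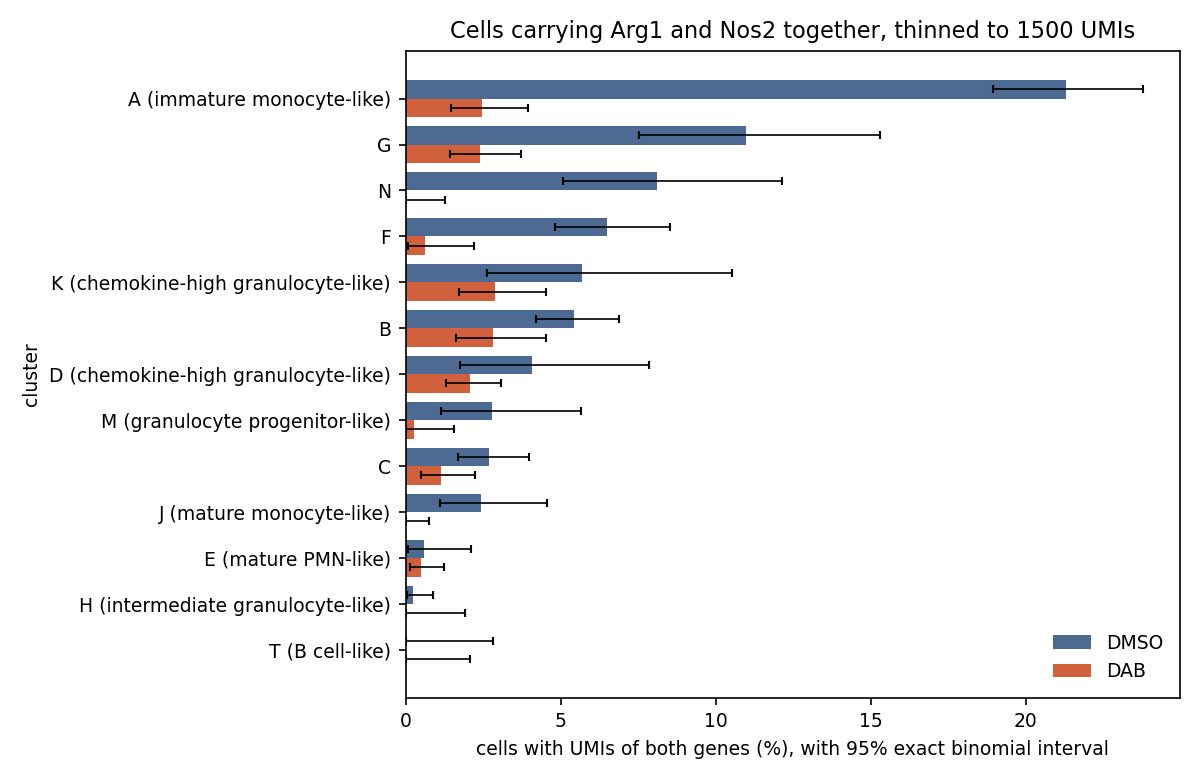
The share of cells with UMIs of both Arg1 and Nos2 after thinning to 1500 UMIs, in percent with exact binomial intervals, in selected clusters of both libraries. Immature monocyte-like cells reach 21.3% in DMSO and 2.48% in DAB. B cell-like cells, in which no Nos2 UMI was seen after thinning, are at 0 in both. Clusters X and W are given in the text and not drawn.

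The pairing of both genes was also present inside cell types. Among immature monocyte-like cells of the DMSO library, Arg1 was found in 84.9% of cells with Nos2 and in 69.0% of those without, and in DAB in 65.4% and 34.5%. In mature monocyte-like DMSO cells the shares were 42.9% and 9.71%, and in cluster N 91.3% and 47.5%. Cluster B, at 54.3% and 53.6%, and cluster L, at 48.5% and 44.0%, showed little gap in DMSO, and cluster D ran the other way, with Arg1 in 8 of 20 cells with Nos2 and in 44.6% of those without. Pooled over clusters, the odds of an Arg1 UMI were 2.16 times higher in DMSO cells with Nos2 than in cells without, and 2.52 times higher in DAB. Slc7a2 paired with both, at pooled odds ratios of 2.33 with Nos2 and 2.66 with Arg1 in DMSO, and 1.88 and 2.63 in DAB. Arg2 had pooled odds ratios of 0.835 with Slc7a2, 0.9998 with Arg1 and 1.11 with Nos2 in DMSO, and 1.04, 1.43 and 1.87 in DAB. These ratios describe cells of 1 library each and carry no test.

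Cells with both genes were deeper than the rest in DMSO and shallower in DAB. Their median depth was 12569.5 UMIs in DMSO, against 7483 in cells with neither gene, and 6147.5 in DAB, against 12465. Their median doublet score, the share of simulated doublets among neighbours, was 0.60 in DMSO, where it was 0.56 in cells with Arg1 alone and 0.52 in cells with neither, and 0.50 in DAB, where it was 0.52 and 0.56. The part of doublets and depth in the joint cells was not tested beyond this. In their full counts, the DMSO cells with both held Arg1 at 3156 CPM, Nos2 at 612 CPM and Slc7a2 at 646 CPM, and the DAB cells at 2918, 310 and 224 CPM. Many cells with strong Nos2 also carried Arg1 in counts without thinning. Of the 253 DMSO cells with at least 10 Nos2 UMIs, 225 (88.9%) had an Arg1 UMI and 60.1% were immature monocyte-like. Of the 15 such DAB cells, 13 (86.7%) had an Arg1 UMI. Without thinning, 52.3% of all DMSO cells had one, but so did 88.2% of all DMSO immature monocyte-like cells, a share close to the 88.9%. In DAB these 2 shares were 49.2% and 63.8%. The comparison was not matched for depth.

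What else DMSO cells with Nos2 carried was compared within clusters, over 662 cells with Nos2 in the 9 clusters that held at least 20 cells with and without. Among the genes with the highest ratio to cells without Nos2 were Hilpda (log2 1.17), Procr (0.92), Timp1 (0.91), Ndrg1 (0.90), Selenbp1 (0.84), Mt2 (0.84), Slc7a2 (0.83), Gbe1 (0.82) and Gipr (0.81). Hilpda, which sits on lipid droplets, and Ndrg1 are known hypoxia-inducible genes, and Mt2 is a metallothionein. Of a list of hypoxia-inducible genes, 11 of 11 measured were above 0, with a median of 0.62. Over all 5328 genes compared, 2276 were above 0 and the median was -0.03. The list was drawn up with earlier results of these data known and holds Hilpda and Ndrg1, so these values are a description and not a test. Arg1 itself lay at 0.56 and Odc1 at -0.31.

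The same comparison for Arg1, over 3298 carrying cells in 20 clusters, gave a different set of leading genes. It was led by Mrc1 (1.16), the mannose receptor, then Slc7a2 (1.06), Nos2 (1.02), Saa3 (1.01), Tgfbi (1.01), Sirpb1c (0.98), F13a1 (0.95), Pcdh7 (0.93), Gm5150 (0.91) and Sdc4 (0.88). Slc7a2 is in both sets. Arg2 lay at 0.03. The hypoxia list was not particular to cells with Nos2: for cells with Arg1 its median was 0.24, against -0.03 for all genes compared.

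Over 44 sums of a cluster in a library, 22 of each library, the genes whose level followed Nos2 most closely were Naaa (Pearson r 0.831), Hmox1 (0.826), Slc7a2 (0.822), Klf4 (0.817) and Mmp19 (0.802), out of 9360 genes. Within the 22 DAB sums alone, r was 0.382 for Naaa, 0.756 for Hmox1, 0.742 for Slc7a2, 0.810 for Klf4 and 0.527 for Mmp19, and within the 22 DMSO sums it ran from 0.741 to 0.875. For Arg1 they were Sirpb1c (0.892), Tgfbi (0.888), Cd68 (0.851), Dab2 (0.842) and Car4 (0.836). Arg1 and Nos2 had an r of 0.581, and Arg2 had 0.456 with Arg1 and 0.238 with Nos2. The sums share their library and, within it, depth and free RNA, so the values are descriptions.

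The rest of the pathway was read from lists drawn up with earlier results of these data known. Of the genes with enough UMIs, the median log2 ratio of all was -0.01, and 3.7% were past 2-fold higher and 4.54% lower, the shares against which the counts of each list below stand. Among 16 polyamine genes, 2 were past 2-fold higher, with Srm, spermidine synthase, at 53.0 CPM in DMSO and 128 in DAB beside Slc3a2, and 2 past 2-fold lower, among them Sat1, the acetyltransferase of polyamine breakdown, at 383 and 187 CPM. The list's median was 0.20. Among 7 genes that make proline from ornithine and glutamate, 2 were higher and 0 lower, namely Pycr1 at 11.6 and 32.7 CPM and Aldh18a1 at 10.4 and 33.3 CPM, with a median of 0.58. Of 14 measured genes of nitric oxide synthesis and its cofactor, 0 were past 2-fold higher and 1 lower (Ddah2), and the median was 0.11. Of 7 measured urea cycle and arginine disposal genes, 0 were higher and 2 lower, with Gatm, which uses arginine to make guanidinoacetate, at 30.5 and 14.8 CPM, and the median was -0.25.

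Arg1 and Nos2 were both lower in DAB, and the lists of the activation states that they stand for were mixed, beside the 3.7% higher and 4.54% lower of all genes. Of 13 measured genes of alternative activation, 6 were past 2-fold lower and 1 higher, with a median of -0.66. Ccl17 lay at 281 and 35.8 CPM, Ccl22 at 74.0 and 17.9 CPM, and the exception, Retnla, at 358 and 1191 CPM. The other lower genes were Chil3 (4014 and 1491 CPM), Mgl2 (771 and 375), Clec10a (102 and 37.4) and Mrc1 (15.6 and 1.22). These are ratios of whole libraries and were not split by cluster. Ccl17 led cluster Y, of 129 DMSO and 16 DAB cells, and Retnla led cluster S, of 76 and 262. Chil3, Mgl2, Mrc1 and Ccl22 were among the markers used to name classes. The part of the cell mix in these lists was not tested. Of 14 measured genes of classical activation, 1 was past 2-fold lower, Ccl5 at 50.1 and 19.6 CPM, and 3 were higher, including Cd86 at 30.04 and 67.6 CPM, with a median of 0.14. Of 19 measured genes for regulators of Nos2 and Arg1, 0 were higher and 2 lower, Irf8 at 53.2 and 24.7 CPM and Klf4 at 11.3 and 4.50 CPM. Among the 12 genes of the hypoxia list, which by median stood higher in DMSO cells with Nos2 or with Arg1, 0 were past 2-fold higher and 1 lower. Between the libraries 2 of the 12 were above 0, where 5973 of all 12115 genes tested were. The list's median between the libraries was -0.43.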

How the data were processed

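The authors deposited the UMI counts of every gene in every cell barcode, as 1 filtered matrix per library, made per the labels with Cell Ranger 7.0.0 on mm10, and Seurat 4.3.0 and R 4.1.2 are also listed. No deposited cell annotation was used. The counts were read with Python 3.11.15, numpy 2.4.6, scipy 1.17.1, pandas 2.3.3, scikit-learn 1.9.0, leidenalg 0.10.2, igraph 0.11.9 and matplotlib 3.10.9.

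Barcodes above 10% mitochondrial UMIs (55 in DMSO, 89 in DAB) or over 4 median absolute deviations in depth (0) were removed, leaving 9800 of 9855 and 11542 of 11631. Doublets were scored by simulation (2000 genes, 30 components), and 768 and 1065 cells were removed, at a rate that grew with the number of cells. Of 400 planted doublets, 45.5% were called. Pearson residuals (theta 100) of 3000 variable genes, without the arginine pathway genes, gave 40 components. Libraries were aligned by mutual nearest neighbours and clustered with the Leiden algorithm (20 neighbours, resolution 0.9). A cluster took a class name where at least 3 of its markers were raised and its 10 leading genes did not go against it, and it is a rebuilt name that may differ from the study's.

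Poisson, Clopper-Pearson and conditional binomial intervals (95%) were computed exactly and cover counting error only. A share of 0 allows 3 counts of the total. The pair comparison of joint cells used the Mantel-Haenszel odds ratio over clusters. The ratio method was run on simulated data of 12096 genes, 200 of them changed, for the DAB against DMSO comparison of all cells. Of the genes changed by a set size above 2-fold, 100% were past the threshold, and 0% of the unchanged genes were. Among intervals of unchanged genes, 95.4% held the true value. Intervals of CPM and of log2 ratios leave out the uneven spread of UMIs over cells. For Nos2, the richest 1% of cells held 27.1% of the UMIs in DMSO and 43.8% in DAB. Coverage for UMIs gathered in few cells was not tested. Listed genes were named when past 2-fold with at least 20 CPM in a library. Ddah2, Klf4, Mrc1 and Slc7a3 were also named, below that level. The genes nearest to Arg1 and Nos2 were the 5 of highest correlation of log2(CPM + 10), and genes of carrying cells the 10 of highest ratio of CPM + 10, of which 1 for Nos2 is not reported here. The listed genes Ero1a and Pycr3 were matched through older symbols. The members and lists were chosen with earlier results of these data known. The alternatives tried were other filters, scalings, thinning depths, gene minimums and clusterings. RefSeq promoter windows matched 2 of the 7 members.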

Additional observations from a re-analysis of the deposited data

Results flagged for a closer look

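Cluster P, intermediate granulocyte-like cells led by Retnlg and Ly6g, was past 2-fold higher in DAB for Arg1 and Slc7a2, against the direction of many other clusters. Its Arg1 log2 ratio was 1.08, where 9 clusters were past 2-fold lower and 4 others were higher within 2-fold (B, C, E and K), and its Slc7a2 log2 ratio was 1.68, where 14 were past 2-fold lower. The difference between clusters was not tested, since there was 1 library per condition. The cluster held 126 DMSO and 426 DAB cells, and its Slc7a2 value rested on 10 and 174 UMIs.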

How the results depend on the processing

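No paired analysis was possible because each condition had 1 library, and for the same reason no replicate could be left out. The log2 ratios of the members over all cells depended on how cells were weighted. With each cell weighted equally they were -2.61 for Nos2, -0.19 for Arg1, -0.24 for Arg2, -1.51 for Slc7a2, -0.26 for Ass1 and 0.29 for Asl. With cluster shares made equal they were -3.11 for Nos2, -0.96 for Arg1, -0.86 for Arg2, -1.87 for Slc7a2, -0.31 for Ass1 and 0.50 for Odc1. These equal-share values were computed for the aligned clustering alone. In cells at or below their library's median UMI count, a split chosen after seeing the data, they were -1.88 for Nos2, 0.70 for Arg1, -0.19 for Arg2, -0.43 for Slc7a2, -0.078 for Ass1, 0.48 for Asl and 0.63 for Odc1, so that the direction of Arg1 turned. In deeper cells they were -3.75 for Nos2, -1.75 for Arg1, -1.11 for Arg2, -2.47 for Slc7a2 and -0.40 for Ass1. Depth also differed between clusters, so depth and cell type were not told apart. The cause was not tested. Without doublet removal, Arg1 was at -1.08 and Slc7a2 at -2.11. Scaling by the median of ratios moved all genes by 0.00663.

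Without thinning, the log2 ratio of the share of cells with a UMI was -1.85 for Nos2, -0.087 for Arg1, -0.53 for Slc7a2 and -0.044 for Ass1. That of the share with both Arg1 and Nos2, -2.39 as reported, was -1.94 without thinning and -2.68 with at least 2 UMIs of each gene. The count of genes past 2-fold was 998 as reported, 2070 with a minimum of 20 UMIs and 376 with a minimum of 2000. Of 167 values of a member in a class under other clusterings, 157 kept their direction. By size, 89 moved by less than their counting error, 74 moved further and 4 turned from past 2-fold, and 40 moved by over 1.5 times, 16 of them without alignment. Among these, immature monocyte-like cells went to -0.41 for Arg1, -0.14 for Slc7a2 and -1.11 for Nos2 without alignment, which left 67 DAB cells in the class. The count of values past 2-fold higher, 5 as reported, was 1 to 3. Those past 2-fold that turned were Slc7a2 in intermediate granulocyte-like cells, at -0.48 with resolution 0.5, Arg1 in granulocyte progenitor-like cells, at 0.82 with resolution 1.5, and Slc7a2 in mature PMN-like cells, at 0.029 with resolution 1.5 and 0.44 without alignment. Depth limits the rarest values: a share of 0 of 129 cells allows up to 2.33%.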
